A study of Homo sapiens with 267 samples.

Results

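Libraries labelled as untreated K562 cells were compared between 2 single-cell runs. K562 is an established human leukaemia line with erythroid features that carries the BCR-ABL1 fusion. Both runs used cells at passages 20 to 22 (the labels give hours as the unit), stained with CellTracker Green CMFDA at 1 µM for 30 min and a dead-cell stain, and captured on the Fluidigm C1, a microfluidic chip that holds 1 cell per site. In each run the Green cells were labelled untreated. They shared the run with CellTracker Orange cells, which were labelled with benzene at 10 mM for 3 h in the run called the benzene run here, and with imatinib, an inhibitor of the ABL kinase, at 1 µM for 1 h in the imatinib run. Green libraries were tied to a run by the prefix that their titles share with its Orange libraries.

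Of 267 libraries in the series, 89 were Green libraries of these runs and 87 of these had a matched column of counts. A library was left out with more than 70% of its reads in its 500 most abundant genes, or with 10000 or more genes at more than 2 reads. This left 78 libraries, 30 of the benzene run and 48 of the imatinib run. The limits removed 6 and 3 libraries, respectively. The last library kept in the benzene run held 69.8% of its reads in the top 500 genes and the first left out held 75.1%. On the gene limit, the kept libraries ended at 7304 and 9534 genes, and the libraries left out began at 11248 and 11208.

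Each run was 1 batch of cells, so each group counts as 1 sample and no test between the runs is possible. Differences below are descriptions of these libraries. What the run, its culture and its chips contributed cannot be told apart. The labels do not say which cells were fresh and which were fixed with the cross-linker DSP, and the study captured both kinds in each run, so a different mix of both in each group cannot be told apart from the other differences between the runs. The study also made bulk samples beside each run, and the labels do not say whether any Green library is one of these or comes from an empty site.

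Several of the pathways below have textbook roles. When amino acids run short or the endoplasmic reticulum is loaded with unfolded protein, cells raise translation of the transcription factor ATF4, which turns on enzymes that make or import amino acids, tRNA synthetases, and the stress genes DDIT3, TRIB3 and CHAC1. Ribosome biogenesis is the nucleolar assembly line for ribosomes: RNA polymerase I transcribes ribosomal RNA, and a large set of processing factors trims and folds it, many of them known as MYC targets. Chaperones of the HSP70 family fold new proteins, and several are induced through heat-shock factor 1.

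Promoter stretches of 6 genes from the lists described below are shown first, chosen because they hold a match to a motif of that list's known factor. The stretches come from RefSeq, build GRCh38.p14. Each is 60 bases from a window of 250 bases before to 50 after the transcription start, on the strand of the gene, with a motif match in capitals. The motif TGATGNAA is known from elements bound by ATF4 with a C/EBP partner and was matched in ASNS, CHAC1, AARS1 and GARS1. The heat-shock element, alternating copies of GAA and its reverse complement with 2 free bases between them, was matched in HSPA8. CACGTG, the E-box bound by MYC and related factors, was matched in DDX21. Both strands were searched.
ASNS, chr7:97872443-97872502, minus strand: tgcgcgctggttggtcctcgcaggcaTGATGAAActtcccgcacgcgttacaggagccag
CHAC1, chr15:40953236-40953295, plus strand: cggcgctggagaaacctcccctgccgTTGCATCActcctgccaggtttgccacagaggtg
AARS1, chr16:70289660-70289719, minus strand: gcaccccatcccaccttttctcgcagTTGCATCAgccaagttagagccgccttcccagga
GARS1, chr7:30594818-30594877, plus strand: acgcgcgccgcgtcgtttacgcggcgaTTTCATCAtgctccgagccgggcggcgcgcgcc
HSPA8, chr11:123062158-123062217, minus strand: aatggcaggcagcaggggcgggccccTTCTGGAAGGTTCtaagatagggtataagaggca
DDX21, chr10:68956587-68956646, plus strand: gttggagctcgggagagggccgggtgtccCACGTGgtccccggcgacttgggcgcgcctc
In CHAC1, AARS1, GARS1 and HSPA8 the capitals are the reverse complement of the motif as spelled. A match is a description of the letters and not evidence that a factor was bound.

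Levels are CPM, the counts of a gene per 1000000 reads on all genes. For each run the counts of its libraries were summed, and a difference is the log2 ratio of the summed CPM plus a pseudocount of 1, imatinib run over benzene run. A gene was taken as measured with a mean of at least 5 CPM over both sums and more than 2 reads in at least 10% of the 78 libraries, which 9788 genes met. Among these, 1795 were at least 2-fold higher in the imatinib run (18.3%) and 1373 at least 2-fold lower (14%). The median log2 ratio was 0.07 and the SD over genes 1.15. With median-of-ratios size factors in place of the CPM total, 1494 genes were 2-fold higher and 1726 lower. The Orange libraries, which carried different treatments, gave 17% higher and 12.8% lower between the runs. Within the imatinib run, 7.73% of genes were at least 2-fold apart between Orange and Green, and within the benzene run 27.7% were. These shares are the background for single genes. Among abundant genes, 1 of 87 genes above 1000 CPM was 2-fold higher in the imatinib run and 3 were lower.

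**Figure D1:**
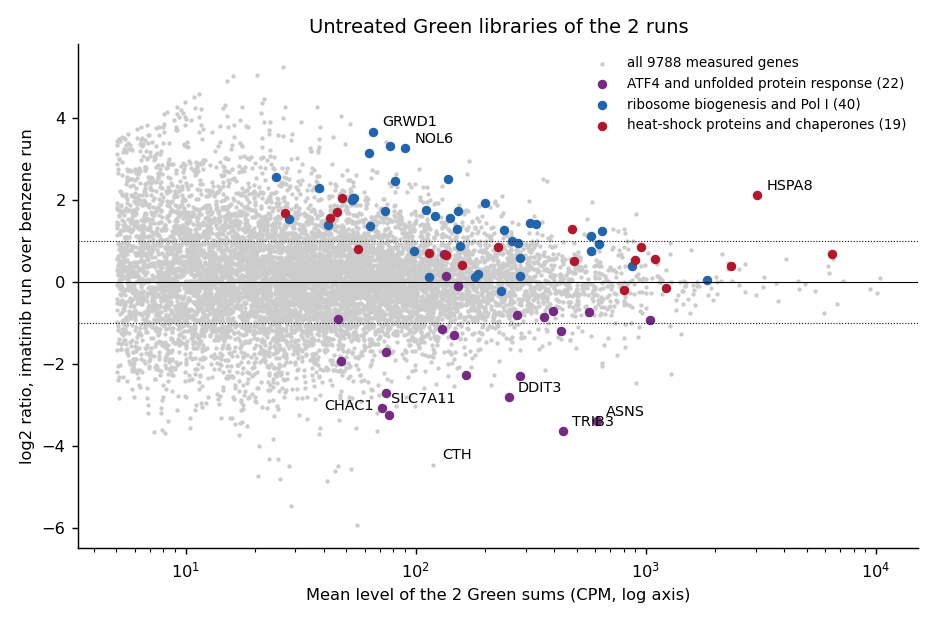
Log2 ratio of the Green sums, imatinib run over benzene run, against the mean level of both sums in CPM on a log axis, 1 point per measured gene. Dotted lines mark 2-fold. The purple points of the ATF4 list lie mostly below 0, 13 of 22 past 2-fold, and the blue points of the ribosome biogenesis list mostly above 0, 27 of 40 past 2-fold.

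The libraries of the runs differed in complexity. Reads on genes ranged from 1040093 to 1657889 in the benzene run and from 722407 to 1597836 in the imatinib run. The median number of genes at more than 2 reads was 5957 (3959 to 7304) in the benzene run and 8052 (5201 to 9534) in the imatinib run, and after thinning every library to 300000 reads it was 4559 and 6336. Spike-in ERCC reads made up a median of 3.97% and 7.85%, and mitochondrial genes 6.56% and 6.35%. The difference of mean log2(CPM + 1) over libraries had a median of 0.85 over all genes, against 0.07 for the sums. Values from libraries with 6000 to 8000 genes only, 13 of the benzene run and 18 of the imatinib run, are given further on.

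The K562 identity of both groups was visible in its markers. PRAME, a tumour antigen of the line, was at 3137 CPM in the benzene run and 3414 in the imatinib run. GATA1, the master factor of the erythroid lineage, was at 352 and 509. CDKN2A and CDKN2B, which lie in the chromosome 9 deletion of K562, had 0 reads in every kept Green library, and MTAP next to them had 0 and 2 reads. Of 16 markers of T, B, myeloid, fibroblast and epithelial cells, 3 were measured (CD3D, LYZ and EPCAM), and the summed level of all 16 ranged from 3.39 to 668 CPM per library in the benzene run and from 1.53 to 328 in the imatinib run. Of the 16 markers, 6 had 0 reads in both runs, among them CD14 and KRT5. COL1A2, a fibroblast marker that did not pass the filter, was at 22.4 CPM in the benzene run and 0.486 in the imatinib run. CD3D was at 41.3 CPM in the benzene run and 9.53 in the imatinib run, a log2 ratio of −2.004, or −1.26 without 1 benzene-run library. The part of these markers in the differences below was not tested.

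HBZ, the embryonic zeta globin, was at a median of 39.7 CPM per library in the benzene run, from 0 to 225. In the imatinib run its median was 184, from 0 to 1118. The sums were 51.7 CPM (exact Poisson 95% interval 49.5 to 53.9, counting error only) and 198 (195 to 202), a log2 ratio of 1.919, and of 1.24 between the Orange libraries. The groups overlapped, and the imatinib-run library was higher in 78% of the 1440 pairs of libraries. Over all measured genes the median of this share was 61.1%, which is the background for the shares of pairs given here and below. HBZ was detected at more than 2 reads in 26 of 30 libraries (86.7%, exact binomial interval 69.3 to 96.2) and in 43 of 48 (89.6%, 77.3 to 96.5).

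MKI67, the proliferation antigen, was at a median of 89.6 CPM (0 to 810) in the benzene run and 252 (1.56 to 1020) in the imatinib run. Its log2 ratio was 1.33, with 79.6% of pairs higher in the imatinib run. In the Orange libraries the ratio was 0.31, with 244 and 303 CPM. Of 24 measured genes of G2/M and mitosis, 2 were 2-fold higher, MKI67 and CCNA2, and 2 lower, AURKB and ANLN, with a median of −0.19. These shares, 8.33% each way, were below the 18.3% higher and 14% lower of all genes. The 22 genes of G1/S and DNA replication had a median of 0.41, with 3 higher (13.6%, against 18.3% of all genes) and 0 lower. The 3 were E2F1 at 2.37, UNG at 1.81 and CCNE1 at 1.45. Without the benzene-run library that gave each the most reads, these were at 3.12, 2.45 and 2.32.

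Of 8 measured globin genes, 4 were 2-fold higher in the imatinib run (50%, against 18.3% of all genes) and 0 lower, with a median of 0.61. Besides HBZ, the alpha-like HBA2 was at 1.34 and HBA1 at 1.14, while the alpha-like HBQ1 was at 0.08 with 34.9 and 36.9 CPM. The beta-like HBE1 was at −0.64, HBG1 at −0.25 and HBG2 at −0.23. HBG2 stood at a median of 2142 CPM (1547 to 8221) in the benzene run and 2402 (253 to 8221) in the imatinib run. HBD, a minor adult beta-like gene, was at 1.58, but 72.7% of its benzene-run reads came from 1 library, without which the ratio was 3.09. HBB had 1.26 and 0.0503 CPM and was not measured. Reads of HBA1 and HBA2, and of HBG1 and HBG2, can be split between near-identical copies. Across the imatinib-run libraries the level of HBZ ran with that of HBA2 (Spearman rho 0.58, n = 48), HBE1 (0.54) and HBG2 (0.59), and across the benzene-run libraries less so (0.27, 0.41 and 0.15, n = 30), where the points of a run share a batch and similar depth.

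Among the gene lists compared, the list of ATF4 targets and the unfolded protein response had the lowest median log2 ratio. Of 22 measured genes in the list of ATF4 targets and the unfolded protein response, 13 were at least 2-fold lower in the imatinib run, against 14% of all genes, and 0 were 2-fold higher, with a median log2 ratio of −1.25. The summed level of the list was a median of 8354 CPM per library in the benzene run, from 4470 to 12274. In the imatinib run its median was 3238, from 1492 to 9179. The groups barely met: 2 of the 48 imatinib-run libraries reached the lowest benzene-run library. One member, VLDLR, did not pass the filter.

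ASNS, asparagine synthetase (ENSG00000070669, GRCh37 chromosome 7, 97480989 to 97501854), was at a median of 1159 CPM in the benzene run, from 86.6 to 2130. In the imatinib run it was at 48.1, from 0 to 1811. The sums of 1116 and 105 CPM gave a log2 ratio of −3.39, and the benzene-run library was higher in 95.7% of pairs. Only 1 of the 48 imatinib-run libraries exceeded the benzene-run median.

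TRIB3, a pseudokinase that feeds back on ATF4, was at a median of 658 CPM (4.46 to 2117) in the benzene run and 27.3 (0 to 334) in the imatinib run, a log2 ratio of −3.65. DDIT3, the stress factor CHOP, was at 283 (7.08 to 1728) and 46.6 (0 to 413), a ratio of −2.81. In the benzene run 23 of 30 libraries lay above the highest imatinib-run library for TRIB3, and 13 did for DDIT3. CHAC1, which degrades glutathione, had more than 2 reads in 20 of 30 benzene-run libraries and in 2 of 48 imatinib-run libraries. CHAC1 was at −3.25, and at −6.91 without 1 imatinib-run library, replicate 23, that gave 98.8% of its reads there. ASNS was at −3.97 without that library. DDIT4, an inhibitor of mTORC1 signalling, was at −1.92, and at −3.50 without the same library.

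Among the endoplasmic reticulum genes of the list, the gaps were smaller. HERPUD1, of the degradation machinery, was at −1.30 and XBP1 at −1.70. The chaperones HSPA5 and HSP90B1 were at −0.92 and −0.72, PDIA4 at −0.11, CALR at 0.15 and SDF2L1 at 0.68. ATF4 itself, whose regulation is largely translational, was at 489 and 299 CPM, a ratio of −0.71.

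**Figure D2:**
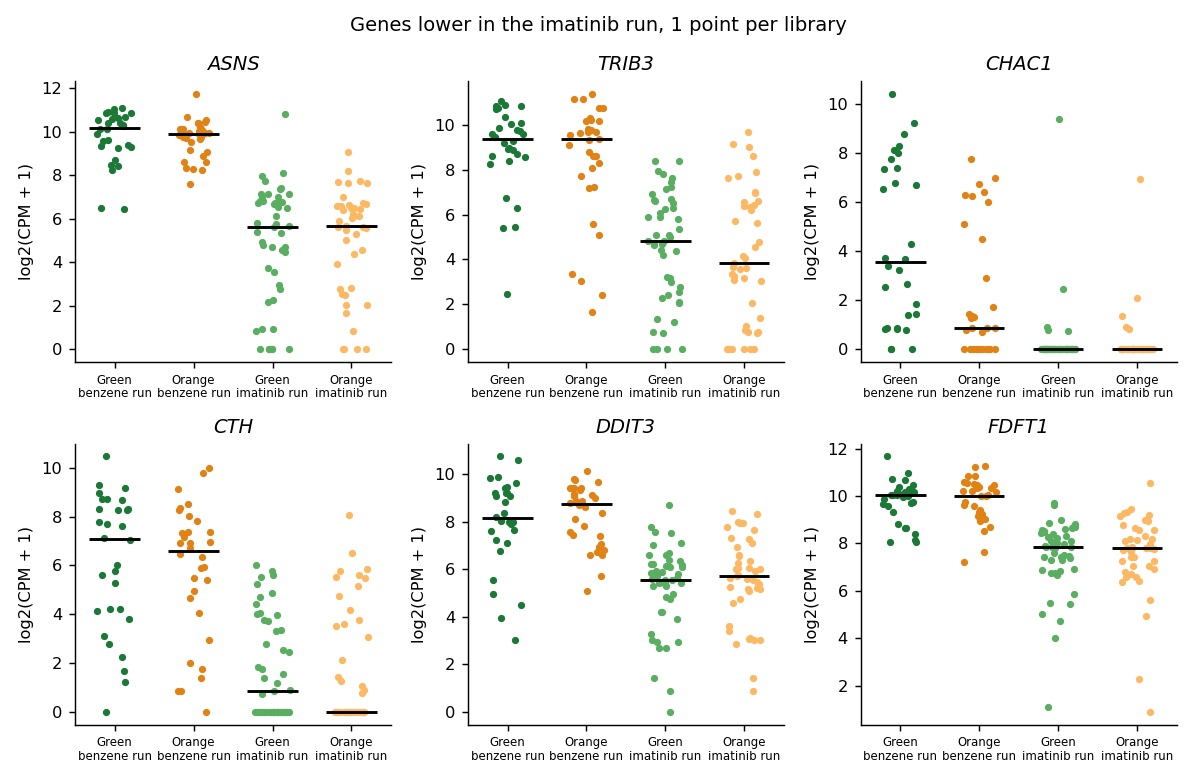
Level of 6 genes as log2(CPM + 1) in each library, Green and Orange, by run, with the median as a bar. The medians of ASNS, TRIB3 and FDFT1 are higher in the benzene run in both dyes, with overlap between single libraries, while CHAC1 is at 0 in most imatinib-run libraries and spread widely in the benzene run.

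Metabolic genes were also often lower in the imatinib run, in lists that partly repeat the ATF4 list. PHGDH, PSAT1, SHMT2 and SLC7A11, named below, were already counted there and are not further support. These lists of synthetases, serine enzymes and transporters were drawn up after the values of the ATF4 list had been seen. Of 11 measured enzymes of serine, glycine and one-carbon metabolism, 6 were 2-fold lower in the imatinib run and 0 higher. That is 54.5% lower, against 14% of all genes. CTH, which makes cysteine, showed the lowest ratio of any gene open to the naming rule at −4.46, with medians of 134 and 0.827 CPM. PHGDH and PSAT1, the first steps of serine synthesis, were at −2.28 and −2.27. The mitochondrial enzymes ALDH1L2, MTHFD1L and SHMT2 were at −3.83, −1.58 and −1.20, and the cytosolic SHMT1 was at 0.31. Of 9 transporters, 3 were lower (33.3%, against 14% of all genes), led by the cystine carrier SLC7A11 at −3.08.

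Of 20 cytosolic aminoacyl-tRNA synthetases, which charge tRNAs with amino acids, 8 were 2-fold lower in the imatinib run (40%, against 14% of all genes). WARS1 was at −2.46, CARS1 −2.28, GARS1 −1.60, MARS1 −1.53, AARS1 −1.42, SARS1 −1.33, YARS1 −1.20 and EPRS1 −1.02. HARS1 went the other way at 1.65. WARS1 was at a median of 1155 CPM (68.4 to 4202) in the benzene run and 215 (0 to 1055) in the imatinib run. The promoter windows of 16 synthetases were in RefSeq's table under their symbols, and 7 (43.8%) held TGATGNAA on either strand, against 2.51% of 7384 measured genes with a window and 3.62% of all windows. Among the 7, AARS1, CARS1, GARS1 and MARS1 were 2-fold lower, IARS1 was at −0.997, just short of 2-fold, and NARS1 and TARS1 were at 0.08 and −0.07. In the ATF4 list 4 of 19 windows held it (ASNS, CHAC1, HERPUD1 and SLC3A2).

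GDF15, a secreted stress cytokine, was the lowest member of the p53 target list. It was at a median of 28.9 CPM (0 to 630) in the benzene run and had 0 reads in 38 of 48 imatinib-run libraries, with a log2 ratio of −4.48. MDM2, the best known p53 target, was at 1.12, and over the 7 measured genes of that list 1 was lower and 1 higher. VEGFA, the angiogenic factor in the hypoxia list, was at −2.82, with 16.6 and 1.43 CPM as medians.

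Cholesterol and fatty acid synthesis genes were lower in the imatinib run, with a median of −0.88. Of 19 measured, 7 were past 2-fold (36.8%, against 14% of all genes) and 1 was 2-fold higher. FDFT1, squalene synthase, was at a median of 1038 CPM (267 to 3243) and 229 (1.15 to 826), a ratio of −2.05, and 20 of 30 benzene-run libraries lay above every imatinib-run library. INSIG1, the sterol sensor that holds SREBP in the endoplasmic reticulum, was at −1.73, and the regulators SREBF1 and SREBF2 at −1.49 and −1.33. SREBF1 was at −0.59 without 1 benzene-run library. Of 13 histones 3 were 2-fold lower (23.1%, against 14% of all genes), with the linker histone H1-2 at −1.97 and a median of −0.44, and reads of histone genes can be shared between related copies.

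PPP2R5C, a regulatory subunit of phosphatase 2A, separated the runs best among genes lower in the imatinib run, and was chosen after its values were seen. Its median was 2164 CPM (307 to 4009) in the benzene run and 438 (106 to 853) in the imatinib run, and 29 of 30 benzene-run libraries lay above all 48 of the imatinib run. The log2 ratio was −2.25 in Green and −2.28 in Orange. Among the genes with the 12 lowest ratios, CD69, BHLHE40, SEL1L3, CD52, PLAUR, TES and PRKCQ were outside these pathways and ranged from −3.03 to −2.83. BHLHE40 was at −3.68 without 1 imatinib-run library, and PRKCQ was at −0.97 without 1 benzene-run library that held 74% of its reads.

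STAT5 is a factor activated by BCR-ABL1. Of 14 measured targets of MYC and STAT5, 3 were 2-fold lower in the untreated cells of the imatinib run (PIM1, SOCS2 and CISH). Another 2 were higher (NCL and CAD). These shares, 21.4% lower and 14.3% higher, were near the 14% and 18.3% of all genes. PIM2 and BCL2L1 of the same list lay on the other side of 0, at 0.92 and 0.70. PIM1, a survival kinase, was at a median of 118 CPM (9.95 to 548) in the benzene run and 41.6 (0 to 168) in the imatinib run, a ratio of −1.80. SOCS2 and CISH, feedback inhibitors of the same pathway, were at −1.43 and −1.16, with 58.1% and 56.1% of pairs higher in the benzene run. Within the imatinib run the imatinib-labelled Orange libraries differed from Green by −0.17 for PIM1, −0.58 for SOCS2 and −0.95 for CISH. MYC was at −0.70.

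Among the gene lists compared, ribosome biogenesis had the highest median log2 ratio. In a list of processing factors and RNA polymerase I genes made after the ratios had been seen, 27 of 40 measured genes were at least 2-fold higher in the imatinib run, against 18.3% of all genes, 0 were 2-fold lower and 39 were above 0. The median was 1.41. The summed level had a median of 7088 CPM per library in the benzene run (4901 to 10281) and 13003 in the imatinib run (6257 to 17435), and 6 of 48 imatinib-run libraries lay within the benzene-run range.

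GRWD1, a ribosome assembly chaperone, was at a median of 0 CPM in the benzene run, with a highest value of 141, and at 102 (0 to 540) in the imatinib run. Its sums were 8.68 and 122 CPM, a log2 ratio of 3.67, or 4.56 without the benzene-run library that gave 52.9% of its reads. NOL6, of the small-subunit processome, was at a median of 0 (0 to 111) and 105 (0.836 to 979), a ratio of 3.26. GRWD1 was found in 8 of 30 and 46 of 48 libraries at more than 2 reads, and NOL6 in the same numbers. URB2 was at 3.33 and POLR1B, the second largest subunit of RNA polymerase I, at 3.15. Without the benzene-run library that gave the most reads, URB2 was at 4.01 and POLR1B at 3.91. With the libraries left out by the limits included, POLR1B was at 0.15.

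The abundant nucleolar proteins differed less. NCL, nucleolin, was at a median of 363 CPM (0.839 to 1513) and 908 (300 to 1530), a ratio of 1.26. FBL, the methyltransferase of box C/D particles, was at 0.88. NPM1 was at medians of 1831 and 1838 CPM and a ratio of 0.06. The 42 cytosolic ribosomal proteins, which are the building blocks rather than the assembly factors, had 0 members past 2-fold either way and a median of −0.14. MYBBP1A and TCOF1, both nucleolar, were at 2.32 and 1.93. Of 33 windows of the ribosome biogenesis list in the RefSeq table, 14 (42.4%) held the E-box CACGTG, against 13.4% of measured genes and 7.26% of all windows. Of these 14 genes, FBL, LTV1 and NAT10 were within 2-fold, at 0.88, 0.15 and 0.11. The others were 2-fold higher, in a list with 27 of 40 higher. In the ATF4 list, lower in the same run, 4 of 19 windows (21.1%) held the E-box.

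**Figure D3:**
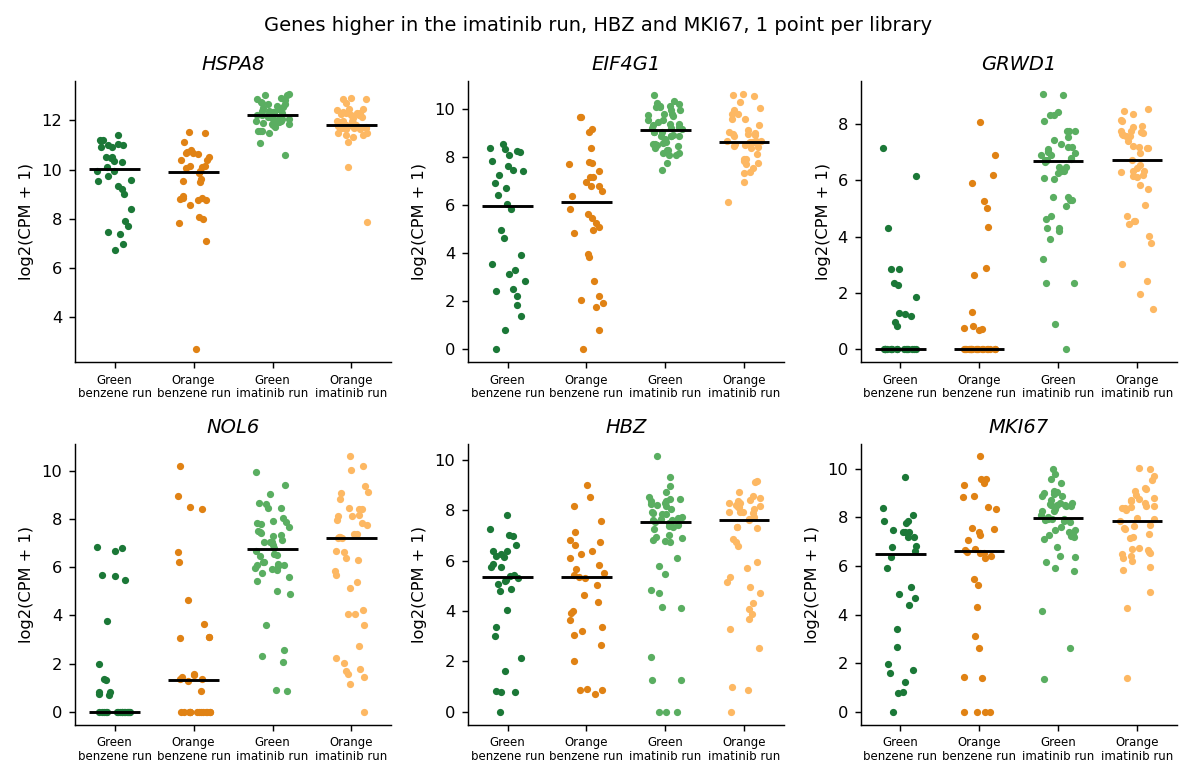
Level of 6 genes as log2(CPM + 1) in each library, Green and Orange, by run, with the median as a bar. HSPA8 and EIF4G1 are high in nearly every imatinib-run library, GRWD1 and NOL6 are at or near 0 in most benzene-run libraries, and HBZ and MKI67 overlap widely.

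Chaperones were also higher in the imatinib run. Of 19 measured genes, 6 were 2-fold higher in the imatinib run (31.6%, against 18.3% of all genes) and 0 lower, with a median of 0.71. HSPA8, the constitutive HSP70, separated the runs best of all genes ranked. Its median was 1038 CPM (107 to 2683) in the benzene run and 4726 (1560 to 8680) in the imatinib run, and 46 of 48 imatinib-run libraries lay above every benzene-run library. The sums of 1142 and 4964 CPM gave a ratio of 2.12, with 99.1% of pairs higher in the imatinib run. The inducible HSPA1B and HSPA1A were at 2.06 and 1.69, DNAJB1 at 1.71, HSPB1 at 1.56 and DNAJA1 at 1.31. HSPA1B was at 3.37 without 1 benzene-run library, and its reads can be shared with HSPA1A. HSP90AA1 and the mitochondrial HSPA9 were at 0.39 and −0.20. The heat-shock element was present in 6 of 19 windows of this list (31.6%) and in 0.46% of measured genes. Of these 6 genes, HSPA8 and DNAJA1 were 2-fold higher. DNAJB6, HSP90AA1, HSP90AB1 and HSPD1 were within 2-fold, at 0.67, 0.39, 0.69 and 0.53. The windows of HSPA1A, HSPA1B, DNAJB1 and HSPB1, which were 2-fold higher, held no match.

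EIF4G1, the scaffold of cap-dependent translation, was at a median of 60.1 CPM (0 to 365) and 549 (172 to 1532), a ratio of 2.46, with 96.7% of pairs higher in the imatinib run. Across 18 translation factors 2 were 2-fold higher (EIF4G1 and EIF5A) and 1 lower (EIF1). Of 21 splicing factors 4 were higher, led by HNRNPM at 1.35 and SRSF6 at 1.30. That is 19% of the splicing factors, near the 18.3% of all genes, and 11.1% of the translation factors were higher. BCR, the partner of ABL1 in the fusion, was at 3.03 with 5.89 and 55.2 CPM, and ABL1 was at 0.27. The remaining genes among the 12 highest were SLC39A1, ATG9A, GEMIN5, SNX27, UBE2O, KLHL18, ELAC2 and RUSC1, from 3.86 down to 2.68. ATG9A did not hold in the Orange libraries, where it was at −0.68. SLC39A1 was at 5.08, GEMIN5 at 3.55 and SNX27 at 3.50 without the benzene-run library that gave the most reads.

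Restricting both runs to libraries with 6000 to 8000 genes gave the main groups the same direction. Complexity still differed there, with a median of 6410 genes in the benzene run and 7030.5 in the imatinib run. Over all genes, 22.2% were 2-fold higher in these libraries and 17.6% lower. There, 14 of 22 ATF4-list genes were 2-fold lower and 1 higher, with a median of −1.24, and 24 of 40 ribosome biogenesis genes were higher and 0 lower, with a median of 1.33. The chaperones had 7 of 19 higher, and the cholesterol genes 8 of 19 lower. Other lists shifted. The G2/M genes had 1 of 24 higher and 8 lower, with a median of −0.70, the mitochondrially encoded genes 7 of 13 higher and 0 lower, with a median of 1.14, and the iron genes 5 of 10 higher and 2 lower, with a median of 0.55. ASNS was at −3.05, TRIB3 at −3.40, HSPA8 at 1.93, GRWD1 at 3.72 and HBZ at 2.61. CHAC1 was smaller there at −1.18. Replicate 23 of the imatinib run, with 6584 genes, was among these libraries. Of the reads of its whole run, it gave 98.8% for CHAC1 and 70.7% for DDIT4. The part of that library in the smaller gaps was not tested. Several named genes were within 2-fold in these libraries, namely DDIT4 at −0.79, XBP1 at −0.88, MTHFD1L at −0.44, SREBF1 at −0.74, CAD at 0.99, HNRNPM at 0.12, SRSF6 at 0.71 and CCNA2 at −0.0095.

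The Orange libraries gave the same direction for these groups, although they carried benzene in the one run and imatinib in the other. In Orange, 11 of 22 ATF4-list genes were 2-fold lower and 0 higher, with a median of −1.06, and 22 of 40 ribosome biogenesis genes were higher and 0 lower, with a median of 1.12. Of the 1795 genes 2-fold higher in Green, 668 were also 2-fold higher in Orange, which is 37.2% of the Green list and 40.2% of the Orange list of 1662. For genes lower the shared count was 535, or 39% of the Green and 42.6% of the Orange list. Over all measured genes, 17% were 2-fold higher and 12.8% lower in Orange. Of the genes higher in Green, 115 were 2-fold lower in Orange, and of the genes lower in Green, 168 were 2-fold higher. The sign was the same in Orange for 73.5% of the genes higher in Green and 69.8% of those lower. Immediate-early genes differed between the dyes, with a median over 13 genes of 0.52 in Green and −0.99 in Orange. Green and Orange cells of a run shared its chips and culture, so both comparisons carry whatever set the runs apart.

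**Figure D4:**
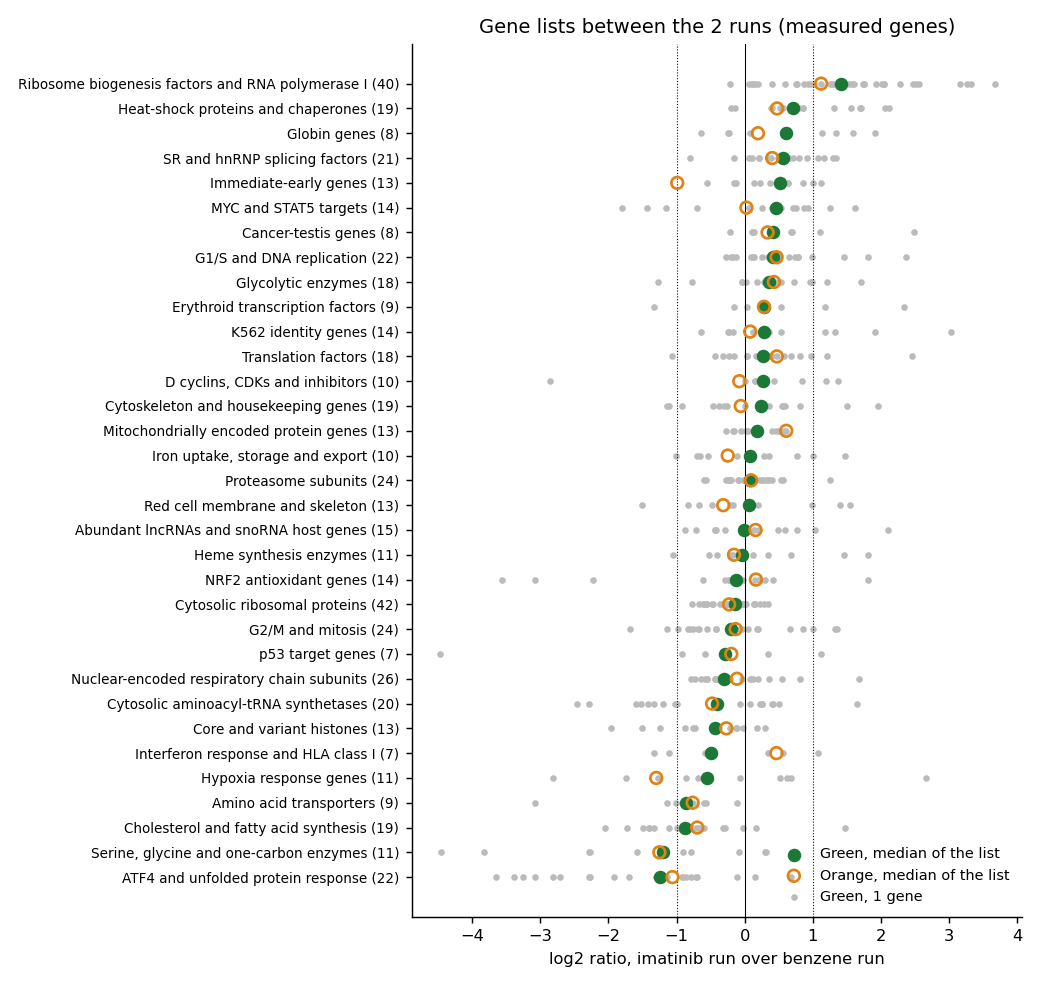
Log2 ratio, imatinib run over benzene run, for gene lists with at least 7 measured genes. Grey points are genes in Green, filled circles the Green median and open circles the Orange median, and dotted lines mark 2-fold. Ribosome biogenesis lies at the top (median 1.41 in Green and 1.12 in Orange) and the ATF4 list at the bottom (−1.25 and −1.06).

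One Green imatinib-run library stood apart from the other 47. Replicate 23, with 6584 genes and 1196479 reads, had the highest sum of the ATF4 list at 9179 CPM, where the next library had 4539, and a sum above that of 17 of 30 benzene-run libraries. It ranked first or second of 48 in 13 of 23 matched members of the list, with ASNS at 1811 CPM, CHAC1 at 679, MTHFD2 at 1168 and DDIT4 at 677. Among the endoplasmic reticulum genes, it ranked 1 for HERPUD1 and 2 for XBP1. It ranked low for SDF2L1 (48), HSP90B1 (47), HSPA5 (44), PDIA4 (40) and CALR (36). Its sum of ribosome biogenesis genes was the lowest of the 48 at 6257, where the others began at 8823, and its HSPA8 was also the lowest at 1560. PPP2R5C stood at 354 CPM in it, inside the range of the other Green libraries of its run. CTH and GDF15 had 0 reads in it. Among the Orange libraries of this run, replicate 2 had a like profile, with an ATF4-list sum of 11369 CPM, a ribosome biogenesis sum of 4411, HSPA8 at 1099 and ASNS at 528. Orange replicate 13 had an ATF4-list sum of 11789 with a ribosome biogenesis sum of 13081, and Orange replicate 11 had a ribosome biogenesis sum of 5853. Without this library 13 of 22 ATF4-list genes were still 2-fold lower, with a median of −1.35, and the ribosome biogenesis counts stayed at 27 of 40.

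**Figure D5:**
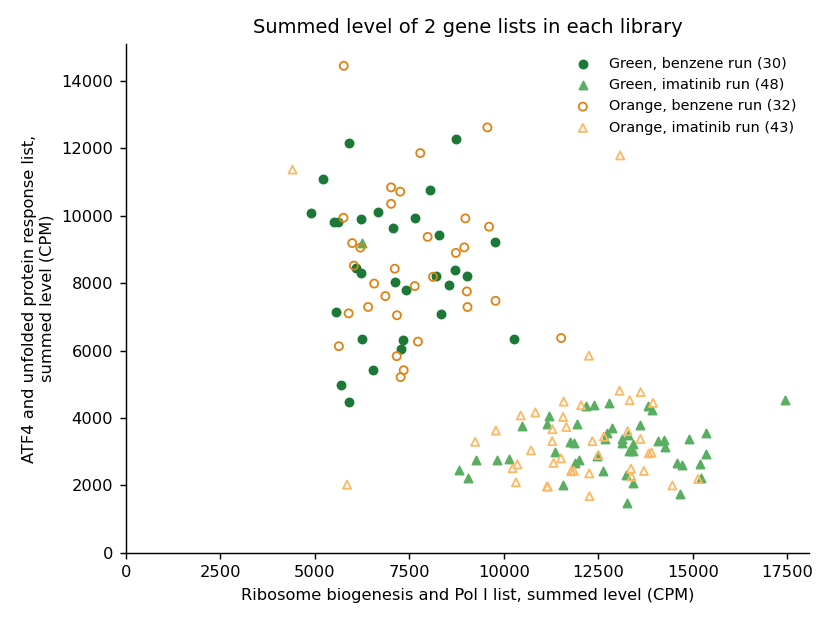
Summed level of the ATF4 list against that of the ribosome biogenesis list, in CPM, 1 point per library, filled for Green and open for Orange. The benzene-run libraries sit at the upper left and nearly all imatinib-run libraries at the lower right, and the filled triangle among the circles is replicate 23.

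Within a run, the mean log2 level of the ATF4 list ran with the number of genes detected (Spearman rho 0.59 in the benzene run, n = 30, and 0.66 in the imatinib run, n = 48), as did that of the ribosome biogenesis list (0.66 and 0.56). Between the lists rho was 0.26 and 0.37. Single ATF4-list genes were only loosely coupled from library to library, with a rho for ASNS and TRIB3 of 0.24 and 0.20 and for ASNS and DDIT3 of −0.17 and −0.27. The points share depth and complexity, and these weak values in sparse counts are descriptions.

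Spread between libraries was wider in the benzene run. The SD of log2(CPM + 1) was larger there for 7251 of 9788 genes, with a median of 2.36 against 2.02. For the chaperones the median SD was 1.93 and 0.78, and for ribosomal proteins 0.92 and 0.44, with all 42 larger in the benzene run. Globins were the exception among the lists compared, larger in the benzene run for 2 of 8 genes. Library complexity also differed between the runs, and its part in the spread was not tested.

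Median log2 ratios by chromosome ran from −0.14 on chromosome 4 to 0.35 on chromosome 19, with 0.30 on chromosome 16, and the Orange medians on these were −0.09, 0.26 and 0.28. Genes of under 1000 exonic bases had a median of −0.09 and genes of 4000 to 8000 bases 0.15. Long non-coding RNAs were lower in the imatinib run more often than protein-coding genes, 135 of 449 (30.1%) against 1136 of 8596 (13.2%), while the snoRNA host gene SNHG12 was at 2.10.

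For the other lists the counts over all kept libraries follow, where 18.3% of all genes were 2-fold higher and 14% lower. Of 11 heme synthesis enzymes 2 were higher in the imatinib run and 1 lower, of 10 iron genes 1 and 1, and of 13 red cell membrane genes 2 and 1. Of 26 nuclear-encoded respiratory chain subunits 1 was higher and 0 lower, with a median of −0.31, and of 13 mitochondrially encoded genes 0 and 0, with a median of 0.18. Of 18 glycolytic enzymes 2 were higher and 1 lower, and of 24 proteasome subunits 1 and 0. Of 14 NRF2 antioxidant genes 1 was higher and 3 lower, of 11 hypoxia genes 1 and 3, and of 7 interferon and HLA class I genes 1 and 2. All 13 megakaryocyte genes stayed below the filter.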

How the data were processed

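Single cells were captured on the Fluidigm C1, their cDNA was made with SMARTer chemistry and libraries with Nextera XT. The authors trimmed reads, aligned them to GRCh37 with ERCC sequences added (HISAT2), and deposited raw counts of uniquely mapped reads per gene from featureCounts in Subread 1.5.0; duplicates were marked with Picard 1.92. Strand use in counting was not given in the sources used here. The deposited CPM table was not used, and neither were 4 count columns whose names match no title; 4 titles match no column.

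Counts of 63677 genes, without the 92 ERCC rows, were read with Python 3.11.15 and named from GENCODE (GRCh37). Since each run is 1 sample, no model was fitted and no p-value is given. Sums have exact Poisson and detection shares exact binomial 95% intervals, which cover counting error only. Genes named: the 12 highest and 12 lowest ratios among 2469 protein-coding genes at 50 CPM or more with more than 2 reads in at least 25% of libraries and the same sign in the mean of log2 values; HBZ and MKI67; and list members at either end or past 2-fold. Ranking by library pairs used 5060 genes at 30 CPM or more. The members and the 38 gene lists (656 entries, 2 of them without a matching symbol) were chosen with earlier results of these data known, and 4 lists were added later. Scripts were tested on simulated data. Alternatives included edgeR 4.0.16 TMM factors and DESeq2 1.42.0 size factors (R 4.3.3). Values of some members of the cholesterol and fatty acid list are not reported here.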

Additional observations from a re-analysis of the deposited data

Results flagged for a closer look

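Counts of 3 Green libraries left out for 10000 or more genes were used only where the limits on libraries were dropped as an alternative. The labels call these libraries Green and untreated, and how many cells each held is not given in them. ASNS was at 932 CPM in the benzene-run library (replicate 38), and at 91.2 and 53.9 in the imatinib-run libraries (replicates 50 and 51). TRIB3 was at 331 CPM in the former, and at 68.2 and 45.03 in the latter. HSPA8 was at 1088 CPM in the former, and at 6298 and 4254 in the latter. These 3 libraries did not enter the main sums.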

How the results depend on the processing

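No paired analysis was possible because each run is 1 sample and the replicate numbers only name libraries. Of 1989 values of 153 genes under the alternatives, 1964 moved by less than the SD over libraries. That is a wide limit, as the median SD over all genes was 2.36 in the benzene run and 2.02 in the imatinib run. Some genes past 2-fold came within it with mean log2 values, among them PRKCQ at −0.53, CD3D at −0.63, SOCS2 at −0.61, AURKB at −0.76 and ANLN at −0.40. Of 455 values of 35 list medians taken relative to all genes, 449 were counted as unchanged. Averaging log2 values over libraries shifted the median of all genes by 0.78, TMM by −0.11 and median-of-ratios size factors by −0.16. Genes 2-fold higher in the imatinib run numbered 4288 with mean log2 values, 993 with a pseudocount of 10 CPM and 3682 without a low-level filter, and genes lower 235, 740 and 2589. Leaving out single libraries gave 1785 to 1876 higher and 1315 to 1395 lower. List medians in this paragraph are relative to the median of all genes, unlike those given earlier. With mean log2 values they moved from −0.21 to −0.84 for ribosomal proteins and from 1.34 to 1.95 for ribosome biogenesis. The hypoxia list turned from −0.62 to 0.0502. Of single genes, given as plain log2 ratios, FECH turned to 0.33, ACO1 to 0.64, ALDOC to 0.0714, SLC7A5 to 0.22 and IRF1 to 0.0691. In libraries with 6000 to 8000 genes the hypoxia list turned to 0.0724, the interferon list to 0.0289, CCNA2 to −0.0095, OSGIN1 to 2.12 and IRF1 to 0.37. Leaving out single libraries took the interferon list from −0.63 to 0.23, OSGIN1 from −3.96 to 1.02 and IRF1 from −1.80 to 0.19. For these turned values the cause was not tested. Between runs the ASNS ratio ranged from −4.91 to −3.05, HSPA8 from 1.93 to 2.49 and PPP2R5C from −2.42 to −2.20. The mean CPM over libraries and the sums without replicate 23 were added after seeing the data.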
